A study of Mus musculus with 26 samples.

Results

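Transcripts of 10 genes of the insulin-like growth factor (IGF) axis were followed in regenerating mouse muscle and in differentiating myoblasts. They were the ligand gene Igf1, the receptors Igf1r and Igf2r, the adaptor Irs1, and the binding proteins Igfbp2, Igfbp3, Igfbp4, Igfbp5, Igfbp6 and Igfbp7. The genes were picked by symbol, and each was found once among the 53465 genes of the regeneration table and once among the 55487 genes of the cell table. All 10 had at least 0.5 FPKM in at least 2 libraries of each table and were tested, among 16753 tested genes of muscle and 13824 of the cells. FPKM is the number of fragments on a gene, divided by the length of its exons and by a scaling factor of the library. Median-ratio factors of the values were equal in all libraries of a table, as given further on, so this scaling factor is not the plain number of reads.

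IGF-I binds the IGF-I receptor, a tyrosine kinase that phosphorylates adaptors such as IRS1 and through them switches on PI3K, Akt and mTOR. The product of Igf2r has no kinase activity. It carries IGF-II into the cell for degradation and also binds lysosomal enzymes. Binding proteins hold IGFs outside the cell, where they can block or deliver them, and IGFBP7 binds IGFs more weakly than the others. In skeletal muscle, IGF signalling is known for driving the proliferation, differentiation and growth of muscle cells, and IGFBP5 is known as a binding protein secreted by differentiating myoblasts.

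The muscle libraries came from the tibialis anterior (TA) of C57BL/6J mice, given in the methods as males of 6 weeks, on days 0, 1, 3, 5 and 10 of injury with cardiotoxin (CTX), a venom protein that destroys muscle fibres. Each day had 2 libraries, 10 in all. Day 0 stands for uninjured muscle in the study, while its methods name saline as the control, so whether day 0 muscle was untouched or given saline is not settled. The cell libraries came from C2C12, a mouse myoblast line, as control cells or as Mettl3 knockdown cells, each in growth medium with 10% fetal serum (GM) or on day 3 in differentiation medium with 2% horse serum (DM3). Each of these 4 groups had 2 libraries, 8 in all. The knockdown was a lentiviral dCas9-KRAB repressor guided to the Mettl3 promoter, with the guide under the hU6 and the repressor under the hUbC promoter, in a puromycin-selected stable line. The series text speaks of a knockout and of wildtype cells as the reference, and it does not say whether the control cells carried a vector. The labels do not say whether 2 libraries of a group came from separate animals or cultures, so every p-value measures the spread between libraries, which may be technical.

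Mettl3, which encodes the catalytic subunit of the m6A methyltransferase, was checked first in the cells. It stood at 4.70 and 5.65 FPKM in Control GM and 4.68 and 5.15 FPKM in Control DM3, against 0.331 and 0.118 FPKM in knockdown GM and 0.148 and 0.0805 FPKM in knockdown DM3. The steps between low FPKM values gave about 14174100 to 18823200 reads on genes per muscle library and 14230100 to 29567100 per cell library. In the cell table every replicate 2 library was the shallower of its group and had 8.03% to 27.3% of its reads on the ribosomal RNA locus CT010467.1, against 0.391% to 0.514% in every replicate 1 library. Xist, the RNA of the inactive X chromosome in female cells, reached 5.77 FPKM or more in 5 muscle libraries (days 0 and 10, and day 3 replicate 2) and no more than 0.152 FPKM in the other 5. These values go against a set of males only, and for days 1 and 5 the presence of Xist and the day cannot be told apart. The 2 libraries of day 3 differed in Xist (0.0198 and 10.0 FPKM), so by these values they did not come from the same animal. The defining markers of muscle were present in every TA library (Ckm at 1013 to 7577 FPKM), and the C2C12 libraries held Myod1 at 2.17 to 31.2 FPKM with Pax7 at no more than 0.0373 FPKM.

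Igfbp2 (chr1:72824503-72852474, plus strand) and Igfbp5 (chr1:72857932-72874884, minus strand) are neighbours in GRCm38 whose ends face each other across 5457 bases. Igfbp3 lies elsewhere, at chr11:7206086-7213923 on the minus strand. The bases just upstream of these genes are shown because Igfbp2 and Igfbp5 had lower values and Igfbp3 higher values in knockdown than in control cells on DM3, as described further on. The sequences are RefSeq's (GRCm38.p6), 5′ to 3′ on the strand of the gene, and hold no annotated exon. Capitals mark E-boxes (CANNTG), the letters bound by MyoD, myogenin and other basic helix-loop-helix factors, which read the same pattern on both strands.
Igfbp2, chr1:72824230-72824479, plus strand: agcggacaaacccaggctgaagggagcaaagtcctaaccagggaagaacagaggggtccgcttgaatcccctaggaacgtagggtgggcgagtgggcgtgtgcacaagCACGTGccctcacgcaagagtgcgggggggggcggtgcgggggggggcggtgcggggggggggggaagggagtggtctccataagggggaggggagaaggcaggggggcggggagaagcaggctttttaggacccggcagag
Igfbp5, chr1:72874885-72875115, minus strand: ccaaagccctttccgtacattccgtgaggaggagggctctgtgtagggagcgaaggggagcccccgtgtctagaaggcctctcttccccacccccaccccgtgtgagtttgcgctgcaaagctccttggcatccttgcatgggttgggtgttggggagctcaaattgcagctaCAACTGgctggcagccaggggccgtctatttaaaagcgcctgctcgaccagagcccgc
Igfbp3, chr11:7213924-7214173, minus strand: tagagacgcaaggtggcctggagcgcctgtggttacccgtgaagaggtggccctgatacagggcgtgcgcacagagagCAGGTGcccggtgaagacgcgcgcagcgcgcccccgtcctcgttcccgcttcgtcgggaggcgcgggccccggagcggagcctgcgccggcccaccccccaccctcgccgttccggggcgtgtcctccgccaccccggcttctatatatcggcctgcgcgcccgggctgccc
Each stretch held 1 E-box, CACGTG in Igfbp2, CAACTG in Igfbp5 and CAGGTG in Igfbp3. They began 142, 58 and 172 bases before the 3′ end of the stretch. Of 32851 windows of 250 bases upstream of a gene start in the same table, 66.2% held a CANNTG and 6.02% the CACGTG form, so holding an E-box is common among such windows, and a match describes these letters only.

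The other members lie at chr10:87858265-87937042 (Igf1, plus strand), chr7:67952827-68233668 (Igf1r, plus), chr17:12682406-12769664 (Igf2r, minus), chr1:82233101-82291416 (Irs1, minus), chr11:99041244-99054392 (Igfbp4, plus), chr15:102144362-102149511 (Igfbp6, plus) and chr5:77349240-77408041 (Igfbp7, minus).

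In regenerating muscle, the transcripts of the ligand and of Igfbp4 rose on days 3 and 5, that of Igfbp2 rose on day 3, and that of the adaptor fell on day 3. On day 3 against day 0, Igf1, Igf2r, Igfbp2 and Igfbp4 rose and Irs1 fell, 5 of the 10 members, where 48.8% of all genes tested were called in either direction and 24.5% as higher. On day 5, Igf1, Igf2r and Igfbp4 were still above day 0, which made 3 of 10, against 25.5% of all genes called and 12.9% called as higher. On days 1 and 10 none of the 10 was called against day 0. Called means an adjusted p of at most 0.05 from limma fitted to log2(FPKM + 0.1) across all genes of the table, so that log2 fold changes of low genes are understated. The plot of FPKM by day shows each library.

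**Figure D1:**
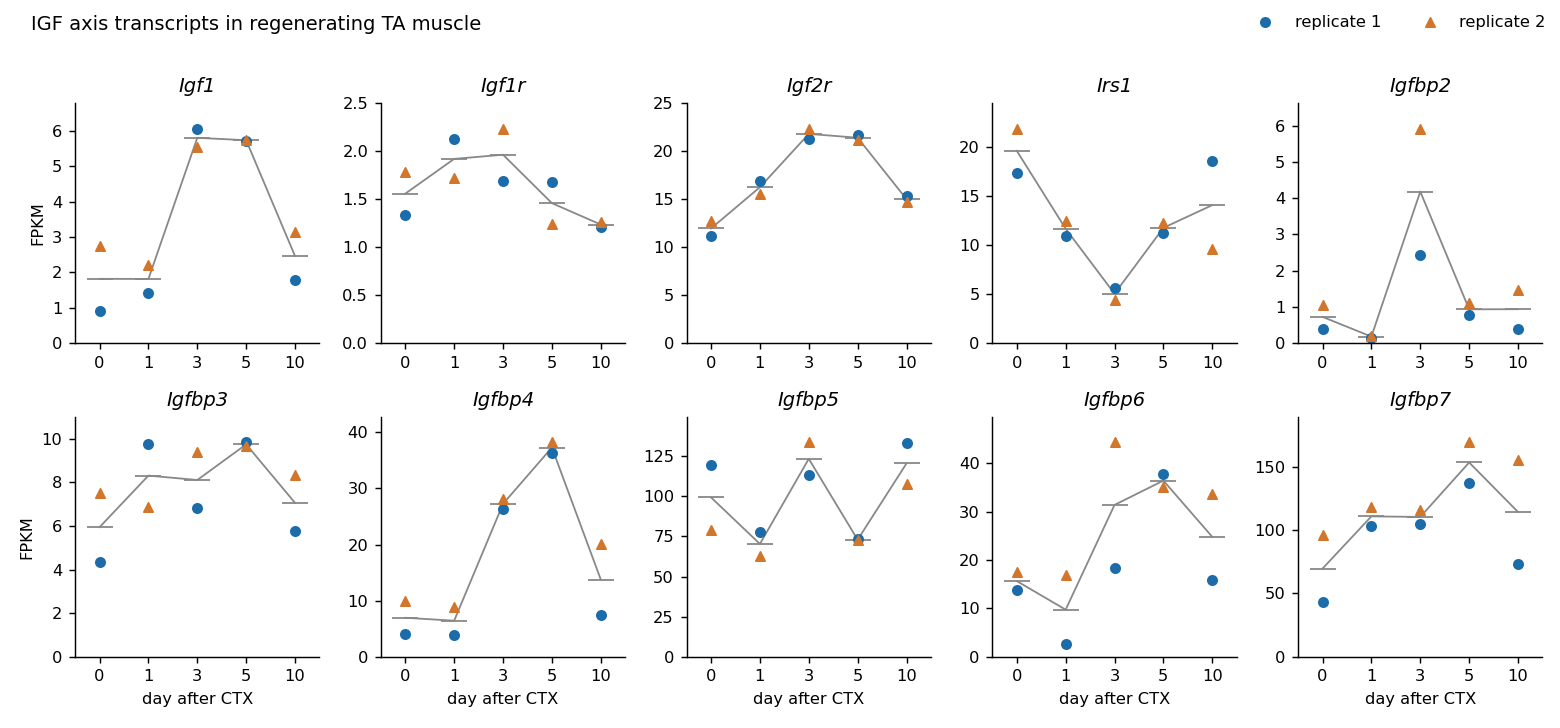
FPKM (y axis, from 0) of the 10 IGF axis genes against the day after CTX (x axis, days spaced evenly and not to scale), with circles for replicate 1, triangles for replicate 2 and a line through the mean of the 2 libraries of each day. Igf1 and Igfbp4 were highest on days 3 and 5, Igfbp2 on day 3 alone, and Irs1 was lowest on day 3, at 5.65 and 4.41 FPKM.

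Igf1 stood at 0.900 and 2.74 FPKM on day 0, 1.42 and 2.21 on day 1, 6.07 and 5.55 on day 3, 5.73 and 5.75 on day 5, then 1.78 and 3.14 on day 10. Both libraries of days 3 and 5 were above all 6 libraries of the other days, and days 0, 1 and 10 overlapped. The mean was 3.20-fold that of day 0 on day 3 (log2 fold change 1.81, SE 0.48, limma adjusted p = 0.0161) and 3.16-fold on day 5 (1.79, SE 0.48, limma adjusted p = 0.0328). Day 3 was also above day 1 (log2 fold change 1.66, limma adjusted p = 0.0348), a call lost without any 1 library of days 1, 3 or 5 (adjusted p = 0.0563 to 0.146). From day 3 to day 10 Igf1 changed by -1.26 on the log2 scale and did not pass (limma adjusted p = 0.0728), but it did without either day 0 library (0.0199 and 0.0202). The rise on day 3 kept its size but not its call without day 3 replicate 1 (adjusted p = 0.0766) or replicate 2 (0.0675), and without day 0 replicate 1 it was 1.06 (0.0715). On day 5 it was 1.04 without day 0 replicate 1 (adjusted p = 0.156), and the call was also lost without any 1 library of days 3 or 5 (0.0598 to 0.150).

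Of the receptors, Igf2r moved and Igf1r did so in no comparison by this test. Igf2r was at 11.1 and 12.7 FPKM on day 0, 16.9 and 15.6 on day 1, 21.2 and 22.3 on day 3, 21.6 and 21.1 on day 5, then 15.3 and 14.7 on day 10. Its libraries fell into a high level on days 3 and 5, a middle level on days 1 and 10 and a low level on day 0, with no overlap between the levels. It was 1.82-fold day 0 on day 3 (log2 fold change 0.87, SE 0.12, limma adjusted p = 0.00110) and 1.79-fold on day 5 (0.84, SE 0.12, adjusted p = 0.0104). It was lower on day 10 than on day 3 (log2 fold change -0.54, SE 0.12, limma adjusted p = 0.0106) and higher on day 3 than on day 1 (0.42, adjusted p = 0.0319). The difference between day 1 and day 0, 0.44, missed the threshold (limma adjusted p = 0.0682). The day 3 rise over day 0 was called with any 1 library left out. The day 5 rise was not called without day 0 replicate 1 (adjusted p = 0.0764) or day 5 replicate 2 (0.0816), nor the day 10 fall without day 3 replicate 2 (0.0638), nor the day 3 rise over day 1 without day 1 replicate 2 or any 1 library of days 3 and 5 (0.0532 to 0.146). Igf1r was at 1.33 and 1.78 FPKM on day 0, 2.13 and 1.72 on day 1, 1.69 and 2.24 on day 3, 1.68 and 1.24 on day 5, then 1.21 and 1.26 on day 10, and the day 3 level differed from day 0 by 0.32 on the log2 scale (95% interval from -0.24 to 0.87).

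Irs1 was the member that fell from day 0 to day 3. It was at 17.3 and 21.9 FPKM on day 0, 10.9 and 12.4 on day 1, 5.65 and 4.41 on day 3, 11.3 and 12.2 on day 5, then 18.5 and 9.57 on day 10. Both day 3 libraries were below all 8 others, days 1 and 5 overlapped, and the 2 libraries of day 10 lay far apart. The day 3 mean was 0.257 of the day 0 mean (log2 fold change -1.94, SE 0.30, limma adjusted p = 0.00166), and the call was made with any 1 library left out. Irs1 was lower on day 3 than on day 1 (log2 fold change -1.20, limma adjusted p = 0.0203), higher on day 5 than on day 3 (1.22, adjusted p = 0.0374) and higher on day 10 than on day 3 (1.40, adjusted p = 0.00891). The fall from day 1 was not called without any 1 library of days 1 and 3 (adjusted p = 0.0547 to 0.126), the rise to day 5 not without any 1 library of days 0, 3 and 5 (0.0526 to 0.212), and the rise to day 10 not without day 3 replicate 2 (0.0656). In GENCODE M21, 30.9% of the exon bases of Irs1 are shared with Gm9747 on the other strand, and the sources used here do not say whether fragments were counted by strand, so reads of the 2 genes cannot be told apart there.

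Among the binding proteins, Igfbp4, best known as an inhibitor of IGF action that is cut by the protease PAPP-A, rose on days 3 and 5. It was at 3.98 and 9.92 FPKM on day 0, 3.92 and 8.95 on day 1, 26.4 and 28.1 on day 3, 36.4 and 38.2 on day 5, then 7.51 and 20.03 on day 10. Days 3 and 5 lay above every library of the other days, and day 5 above day 3. The mean was 3.92-fold day 0 on day 3 (log2 fold change 2.10, SE 0.58, limma adjusted p = 0.0198), 5.36-fold on day 5 (2.55, SE 0.58, adjusted p = 0.0220) and 4.24-fold day 1 on day 3 (2.18, adjusted p = 0.0269). The lower level on day 10 than on day 3 was not called (log2 fold change -1.14, limma adjusted p = 0.159). The day 3 rise over day 0 was 1.45 and not called without day 0 replicate 1 (adjusted p = 0.124), and not called without either day 3 library (0.0755 and 0.0896). The day 5 rise was not called without day 0 replicate 1 (log2 fold change 1.90, adjusted p = 0.140) or either day 5 library (0.0858 and 0.124), nor the rise over day 1 without day 1 replicate 1 (1.596, adjusted p = 0.128) or either day 3 library (0.0985 and 0.126).

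Igfbp2 formed a sharp peak on day 3. It was at 0.391 and 1.05 FPKM on day 0, 0.151 and 0.206 on day 1, 2.44 and 5.91 on day 3, 0.764 and 1.10 on day 5, then 0.398 and 1.47 on day 10. These are low levels, from 4 to 221 reads a library, but both day 3 libraries were above the 8 others and both day 1 libraries below them. The day 3 mean was 5.78-fold day 0 (log2 fold change 2.38, SE 0.66, limma adjusted p = 0.0195) and 23.4-fold day 1 (3.82, SE 0.66, adjusted p = 0.00649). It was lower on day 10 than on day 3 (log2 fold change -2.14, SE 0.66, limma adjusted p = 0.0363), while day 1 against day 0 (-1.44, adjusted p = 0.211) and day 5 against day 3 (-1.94, adjusted p = 0.0957) were not called. The rise over day 0 was not called without day 0 replicate 1 (1.76, adjusted p = 0.120) or day 3 replicate 2 (1.75, adjusted p = 0.130). The rise over day 1 was not called without day 3 replicate 2 (adjusted p = 0.0565). The fall to day 10 was not called without day 3 replicate 2 (-1.52, adjusted p = 0.209), day 10 replicate 1 (-1.32, adjusted p = 0.205) or any 1 library of days 1 and 5 (0.0505 to 0.0599).

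Igfbp5, its neighbour on chromosome 1, was at no less than 62.8 FPKM in any muscle library. It was at 119 and 79.3 FPKM on day 0, 77.9 and 62.8 on day 1, 113 and 134 on day 3, 73.2 and 72.8 on day 5, then 133 and 108 on day 10. Days 3 and 10 were each above days 1 and 5 in every library, and day 0 overlapped days 3 and 10. Day 3 was 1.75-fold day 1 (log2 fold change 0.81, SE 0.22, limma adjusted p = 0.0296), the only called comparison of Igfbp5 in muscle. Day 5 against day 3 was -0.75 on the log2 scale and missed the threshold (limma adjusted p = 0.0668), which it passed without either day 0 library (0.0451 and 0.0448). The rise from day 1 to day 3 was not called without day 1 replicate 2 (0.66, adjusted p = 0.118), day 3 replicate 1 (0.93, adjusted p = 0.0699), day 3 replicate 2 (0.69, adjusted p = 0.159) or either day 5 library (0.0529 and 0.0530).

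For Igfbp3, Igfbp6 and Igfbp7 no comparison between days was called. Igfbp3, the main carrier of IGFs in blood, was at 4.36 and 7.54 FPKM on day 0, 9.77 and 6.86 on day 1, 6.85 and 9.38 on day 3, 9.84 and 9.66 on day 5, then 5.79 and 8.33 on day 10. All days but day 5 overlapped day 0, and on day 5 Igfbp3 was 0.75 above day 0 on the log2 scale (limma adjusted p = 0.113, or 0.0495 without day 0 replicate 2). Igfbp6, which prefers IGF-II, was at 13.8 and 17.5 FPKM on day 0, 2.64 and 16.8 on day 1, 18.5 and 44.3 on day 3, 37.7 and 35.1 on day 5, then 15.9 and 33.7 on day 10. Its spread within days 1, 3 and 10 was wide, and the difference between days 3 and 1, 2.08 on the log2 scale, did not pass (limma adjusted p = 0.0871), while without day 1 replicate 2 it was 3.39 and passed (0.0149). Igfbp7 was at 43.4 and 96.0 FPKM on day 0, 103 and 118 on day 1, 105 and 116 on day 3, 138 and 169 on day 5, then 73.3 and 155 on day 10. Both day 0 libraries were below those of days 1, 3 and 5, and the 2.20-fold higher mean on day 5 had a log2 fold change of 1.24 (95% interval from 0.25 to 2.24, limma adjusted p = 0.0689). It passed without day 0 replicate 2 (1.81, adjusted p = 0.0308) or either day 10 library (0.0440 and 0.0438). In GENCODE M21, 7.03% of the exon bases of Igfbp7 are shared with Polr2b.

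**Figure D2:**
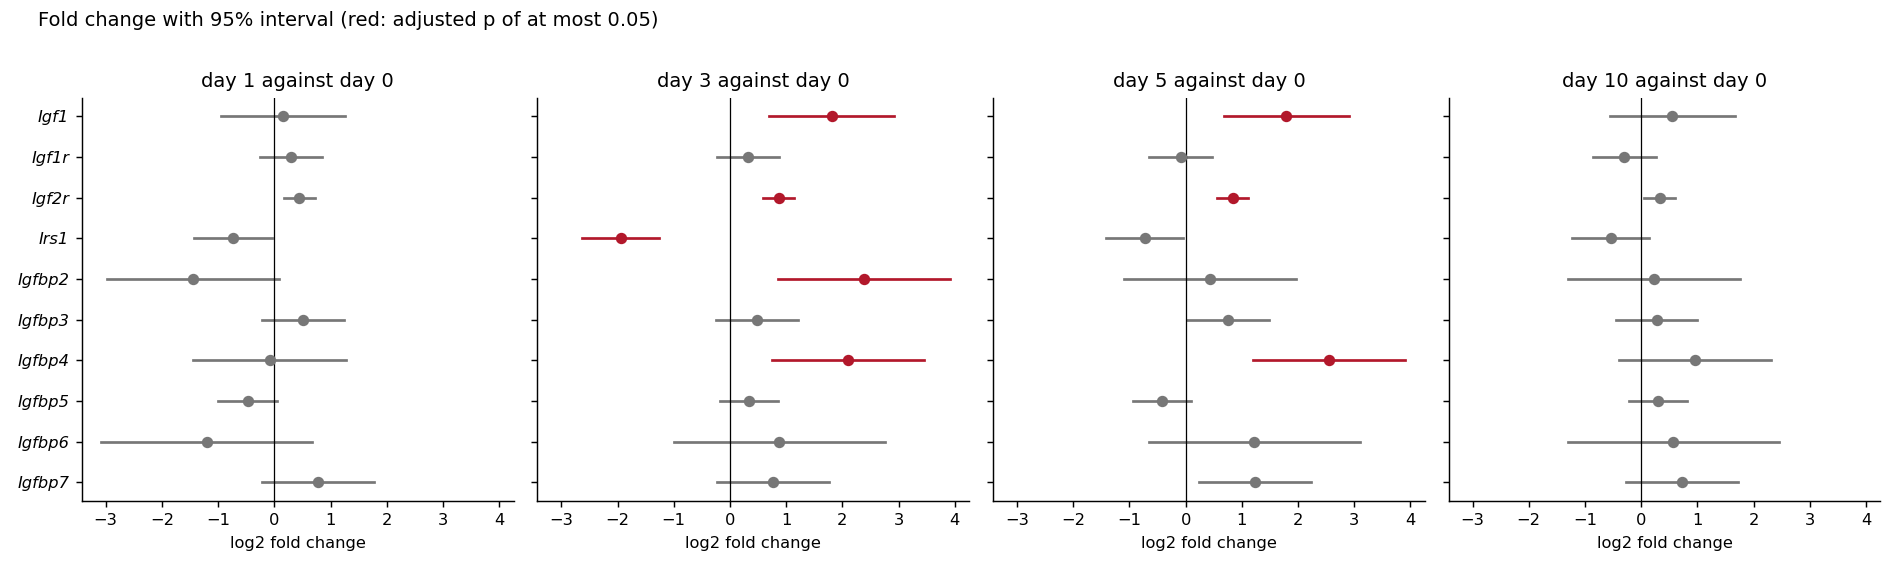
Log2 fold change (x axis) of each of the 10 genes (rows) on days 1, 3, 5 and 10 against day 0, as points with 95% intervals from limma, in red where the adjusted p was at most 0.05. Red points are seen on day 3, for 5 genes, and on day 5, for 3 genes, and on neither day 1 nor day 10.

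Set against the whole table, the counts of called members were as follows. Against day 0, none of the 10 was called on day 1, where 6.0% of all genes were called, and none on day 10, where 0.00597% were called. At an unadjusted p under 0.05 there were 2 of the 10 on day 1, against 26.8% of all genes, and 1 on day 10, against 10.1%. Between days 1 and 3, 6 of the 10 were called, 5 higher and 1 lower on day 3, against 31.1% of all genes. Between days 3 and 5, 1 of 10 was called against 12.7%, and between days 3 and 10, 3 of 10 against 37.9%. The median log2 fold change of the 10 was 0.82 on day 3 and 0.80 on day 5 against day 0, where that of all genes tested was 0.01 and 0. The comparisons with day 0 share the 2 day 0 libraries, and those with day 3 the 2 day 3 libraries.

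Some marker lists of other cell types moved with these transcripts, and others did not. The 8 markers of fibro-adipogenic progenitors, the connective tissue cells of muscle, summed to 102 and 233 FPKM on day 0, 89.6 and 236 on day 1, 716 and 811 on day 3, 893 and 1029 on day 5, then 196 and 482 on day 10, and all 8 were at or above 0.5 FPKM in each library. Replicate 1 had the lower sum on every day, and on days 0, 1 and 10 it also had the lower Igf1, Igfbp2, Igfbp4, Igfbp6 and Igfbp7. The 8 macrophage markers summed to 19.4 and 36.7 FPKM on day 0, 113 and 119.6 on day 1, 553 and 525 on day 3, 185 and 234 on day 5, then 35.3 and 97.8 on day 10, with 5 to 8 of them at or above 0.5 FPKM. The 7 myofibre markers summed to 12132 and 15551 FPKM on day 3 and to 38539 to 64865 FPKM on the other days, where Irs1 was likewise lowest on day 3, and all 7 were at or above 0.5 FPKM in every library. The 2 embryonic myosins, Myh3 and Myh8, which mark newly formed fibres, summed to 461 and 869 FPKM on day 3, when Igfbp2 was highest, and to 324 and 438 on day 5 and 7.25 to 72.3 on the other days. The 5 markers of mural cells, the muscle cells and pericytes of vessel walls, summed to 350 and 429 FPKM on day 3 and to 54.2 to 149 on the other days, with all 5 at or above 0.5 FPKM in each library. Most of the day 3 sum was Acta2, which ranged from 17.4 to 378 FPKM over the muscle libraries. None of the other mural markers exceeded 76.4 FPKM. Acta2 was also at 379 to 1922 FPKM in the C2C12 libraries, where Rgs5 did not exceed 0.0631 FPKM, so this sum does not mark mural cells alone. Not every list followed the members. The endothelial sum was 55.8 and 44.3 FPKM in the day 3 libraries and 55.2 to 109 FPKM in the rest. The neutrophil sum was highest in the day 1 libraries, at 19.2 and 10.1 FPKM, with 7.17 and 8.34 FPKM for day 3. The satellite cell and myoblast sum, 828 and 996 FPKM for day 3, lay within the range of the remaining libraries (786 to 1463 FPKM). The part of these cell types in the changes was not tested, and in bulk tissue a change in the number of cells and a change in RNA per cell cannot be told apart. With a term for Xist in the fit, added after the data had been seen, 3 of 10 members were called on day 3 against day 0 (Igfbp2, Igf2r and Irs1) and 0 on day 5, where the term left no gene of the table called.

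Of 54 other genes on a list of the IGF pathway, 45 could be tested in muscle. Against day 0, the counts were 11 higher and 13 lower on day 3 (53.3% called, against 48.8% of all genes) and 6 higher and 10 lower on day 5 (35.6% against 25.5%). Igf2, the gene of the other IGF ligand, was at 0.210 and 0.759 FPKM on day 0, 2.37 and 5.73 on day 3, then 5.46 and 6.03 on day 5 (log2 fold change 2.88 on day 3, limma adjusted p = 0.00378, and 3.50 on day 5, adjusted p = 0.0113). Grb10, an adaptor that restrains IGF-I receptor signalling, rose from 6.71 and 8.17 FPKM to 34.7 and 46.8 FPKM on day 3 (log2 fold change 2.43, SE 0.24). Adam12, a metalloprotease that can cut IGFBP3 and IGFBP5, rose from 0.0683 and 0.276 FPKM to 3.80 and 3.21 FPKM (3.83, SE 0.55). Grb14, a related adaptor, fell from 4.06 and 6.63 FPKM to 1.06 and 0.385 FPKM (-2.82, SE 0.45). Irs2, the adaptor next in kind to Irs1, fell from 13.8 and 11.4 FPKM on day 0 to 2.58 and 1.73 on day 5 (log2 fold change -2.51, limma adjusted p = 0.0247), and Igfals, which encodes the subunit that stabilises IGF complexes in blood, fell from 2.40 and 1.49 to 0.349 and 0.192 FPKM (-2.46, adjusted p = 0.0270). On day 1, Igf2bp2 and Eif4ebp1 rose and none of the list fell (4.44% called, against 6.0% of all genes), and on day 10 none was called by limma, with 17.8% of the list and 10.1% of all genes at an unadjusted p under 0.05. Between days 1 and 3, 9 rose and 8 fell (37.8% against 31.1%), between days 3 and 5, 2 rose and 4 fell (13.3% against 12.7%), and between days 3 and 10, 6 rose and 9 fell (33.3% against 37.9%).

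In C2C12 cells on DM3, Igfbp3 was 6.33-fold higher in the Mettl3 knockdown than in the control, and it was the 1 member of 10 that passed the test in the comparison of knockdown and control on DM3, where 1.98% of all genes passed. Igfbp5 was 7.86-fold and Igfbp2 4.02-fold lower in the mean of the knockdown libraries, and neither passed in this fit. With the replicate number as a block in the fit, Igfbp5 passed beside Igfbp3 (limma adjusted p = 0.0178 and 0.0216), and Igfbp2 did not. That fit called 505 of the 13824 genes tested. In the other 4 comparisons of the cell table none of the 10 passed without the block, and with it only Igfbp6 did, in Control DM3 against GM. The plot of FPKM by cell group shows each library.

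**Figure D3:**
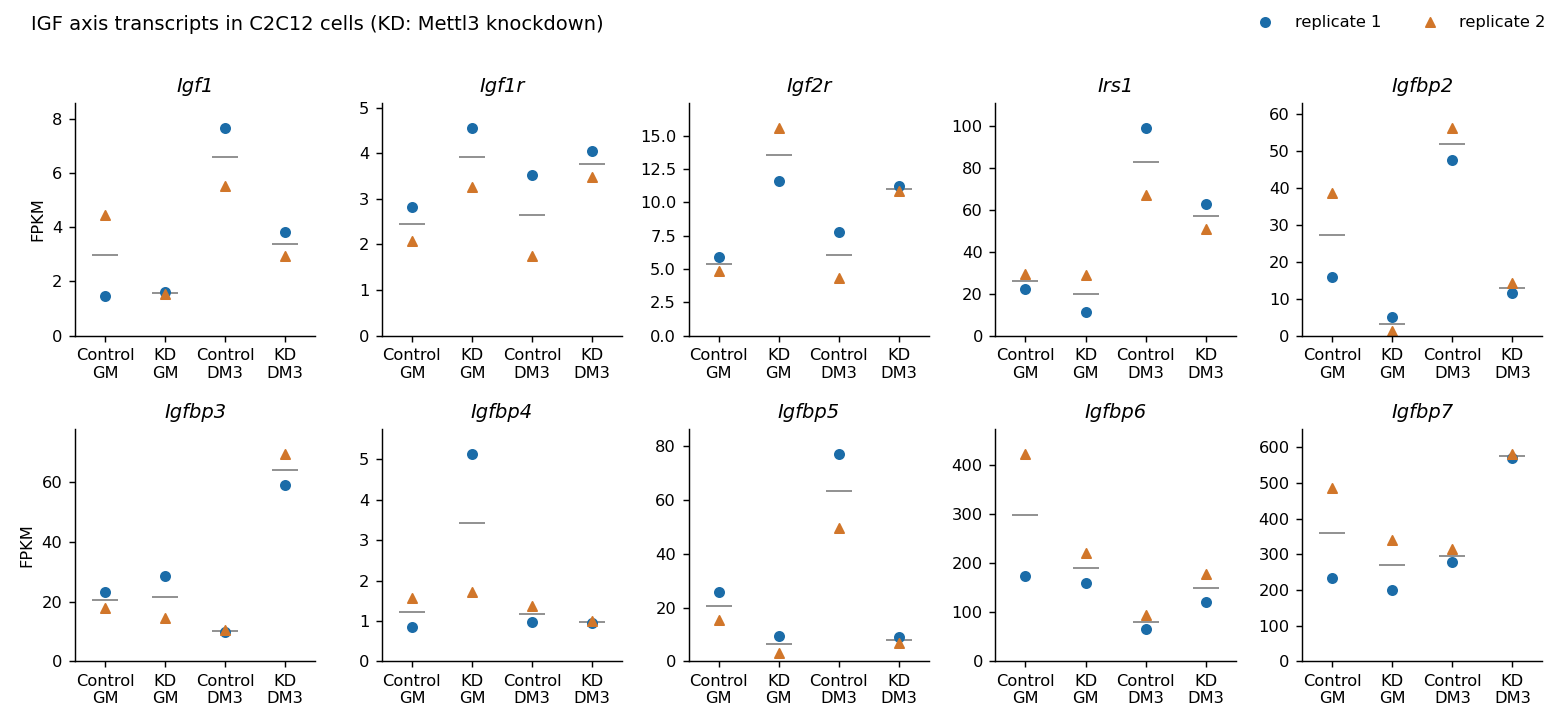
FPKM (y axis, from 0) of the 10 genes in control and Mettl3 knockdown (KD) C2C12 cells in GM and on DM3, with circles for replicate 1, triangles for replicate 2 and a bar at the mean of 2 libraries. Igfbp3 was highest and Igfbp5 and Igfbp2 were low in knockdown cells on DM3, and the 2 libraries of Control GM lay far apart for Igf1, Igfbp2, Igfbp6 and Igfbp7.

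Igfbp3 stood at 23.1 and 17.9 FPKM in Control GM, 28.6 and 14.5 in knockdown GM, 9.85 and 10.4 in Control DM3, and 58.7 and 69.4 in knockdown DM3. Both libraries of Control DM3 were below all others and both of knockdown DM3 above all others, while the GM groups overlapped. Knockdown against control on DM3 gave a log2 fold change of 2.65 (SE 0.33, 95% interval from 1.84 to 3.45, limma adjusted p = 0.0262). In GM the knockdown effect was 0.00 with a 95% interval from -0.81 to 0.81. The difference between these effects was 2.64 on the log2 scale (SE 0.47, limma adjusted p = 0.266) and did not pass. Between GM and DM3, the transcript went down in both control libraries (log2 fold change -1.001, limma adjusted p = 0.208) and up in both knockdown libraries (1.64, adjusted p = 0.123), and neither passed. The DM3 call was lost without any 1 of the 4 DM3 libraries (log2 fold changes of 2.53 to 2.77, adjusted p = 0.235 to 0.298), in fits where no gene of the table was called. A fit to the 4 DM3 libraries alone called Igfbp2 (limma adjusted p = 0.00538), Igfbp5 (0.00725) and Igfbp7 (0.0249) beside Igfbp3.

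Igfbp5 was at 25.9 and 15.6 FPKM in Control GM, 9.52 and 3.06 in knockdown GM, 77.1 and 49.5 in Control DM3, and 9.21 and 6.89 in knockdown DM3. Control DM3 was above all other groups, Control GM came next, and the 2 knockdown groups overlapped at the bottom. On DM3 the log2 fold change of knockdown against control was -2.94 (SE 0.56, 95% interval from -4.29 to -1.59, limma adjusted p = 0.0622). With the replicate number as a block in the fit it was called (limma adjusted p = 0.0178), as it was without either library of Control GM (0.0407) or of knockdown GM (0.0326 and 0.0331). The effect in GM was -1.87 (limma adjusted p = 0.445), and the difference between the effects, -1.07, was not called (95% interval from -2.98 to 0.85). With the replicate block the SE of this difference was 0.42 in place of 0.79, and it was not called (limma adjusted p = 0.370). Without knockdown GM replicate 1 the effect in GM and the difference were -2.68 and -0.26. Without knockdown GM replicate 2 they were -1.07 and -1.87. Igfbp5 was 3.05-fold higher in Control DM3 than in Control GM (log2 fold change 1.62, limma adjusted p = 0.217), which did not pass.

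Igfbp2 was at 16.0 and 38.5 FPKM in Control GM, 4.92 and 1.33 in knockdown GM, 47.4 and 56.3 in Control DM3, and 11.6 and 14.2 in knockdown DM3. All 4 control libraries lay above all 4 knockdown libraries. The log2 fold change of knockdown against control was -3.22 in GM (SE 0.65, limma adjusted p = 0.299) and -2.001 on DM3 (SE 0.65, limma adjusted p = 0.178), and neither passed. Both had intervals below 0, from -4.78 to -1.66 in GM and from -3.56 to -0.44 on DM3, and the difference between the effects was 1.22 (95% interval from -0.99 to 3.43). The lowest library, knockdown GM replicate 2, held 45 reads of Igfbp2. On DM3 against GM, Igfbp2 was 1.90-fold higher in the control (log2 fold change 1.05, limma adjusted p = 0.404) and 4.13-fold higher in the knockdown cells (2.27, adjusted p = 0.223). The spread within GM moved these values: with 1 GM library left out, the DM3 difference ranged from 0.42 to 1.69 in control and from 1.36 to 3.18 in knockdown cells, the knockdown effect in GM from -4.13 to -2.31, and the difference between the effects from 0.31 to 2.13.

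Igfbp7 was the most abundant binding protein transcript in each cell library, and Igfbp6 came next in all but Control DM3 replicate 1, where Igfbp5 did. Igfbp6 was at 173 and 422 FPKM in Control GM, 158 and 220.1 in knockdown GM, 66.5 and 93.5 in Control DM3, and 121 and 178 in knockdown DM3. Both Control DM3 libraries were below all 6 others, and the log2 fold change of Control DM3 against GM was -1.78 (SE 0.47, limma adjusted p = 0.143). With the replicate block it was called (limma adjusted p = 0.0355), as it was without Control GM replicate 1 (-2.42, adjusted p = 0.0211), while without Control GM replicate 2 the change was -1.13. Igfbp7 was at 233 and 485 FPKM in Control GM, 201 and 339 in knockdown GM, 279 and 314 in Control DM3, and 569 and 582 in knockdown DM3. Its 2 libraries of knockdown DM3 were above all 6 others, with a log2 fold change of 0.96 against Control DM3 (SE 0.42, limma adjusted p = 0.319) and of 1.14 against knockdown GM (adjusted p = 0.341). For Igfbp6 the knockdown effect on DM3 was 0.89 (95% interval from -0.24 to 2.03). With the replicate block its SE was 0.26 in place of 0.47, and it was not called (limma adjusted p = 0.116). Igfbp4 was the least abundant binding protein of the cells except in knockdown GM, where Igfbp2 was lower, at 0.855 and 1.57 FPKM in Control GM, 5.14 and 1.73 in knockdown GM, 0.966 and 1.36 in Control DM3, and 0.959 and 1.00 in knockdown DM3.

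For the ligand, the receptors and the adaptor no comparison passed in the cells. Igf1 was at 1.47 and 4.46 FPKM in Control GM, 1.60 and 1.55 in knockdown GM, 7.67 and 5.51 in Control DM3, and 3.84 and 2.93 in knockdown DM3. Control DM3 was above all other libraries, and knockdown DM3 was above knockdown GM and overlapped Control GM. The log2 fold change on DM3 against GM was 1.30 in control cells (limma adjusted p = 0.246) and 1.05 in knockdown cells (adjusted p = 0.471), and knockdown against control on DM3 was -0.93 (95% interval from -2.13 to 0.27). Without Control GM replicate 1 the control comparison was 0.53, and without Control GM replicate 2 it was 2.07 and called (limma adjusted p = 0.0493), and the knockdown effect in GM, -0.68, was -1.45 and 0.093 without these libraries in turn.

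Irs1 was at 22.4 and 29.5 FPKM in Control GM, 11.1 and 28.8 in knockdown GM, 99.1 and 66.9 in Control DM3, and 62.9 and 51.1 in knockdown DM3. In both lines the DM3 libraries were above the GM libraries, with log2 fold changes of 1.66 in control (SE 0.46, limma adjusted p = 0.158) and 1.66 in knockdown cells (SE 0.46, adjusted p = 0.214; 0.97 to 2.34 with 1 library left out). Igf2r was at 5.89 and 4.82 FPKM in Control GM, 11.6 and 15.6 in knockdown GM, 7.76 and 4.30 in Control DM3, and 11.2 and 10.8 in knockdown DM3. All 4 knockdown libraries were above all 4 control libraries, by 1.32 on the log2 scale in GM (SE 0.31, limma adjusted p = 0.355) and 0.92 on DM3 (SE 0.31, adjusted p = 0.197; 0.50 without Control DM3 replicate 2 and 1.34 without replicate 1). Igf1r was at 2.82 and 2.08 FPKM in Control GM, 4.56 and 3.26 in knockdown GM, 3.52 and 1.75 in Control DM3, and 4.06 and 3.47 in knockdown DM3, with a knockdown effect on DM3 of 0.57 (95% interval from -0.33 to 1.48).

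**Figure D4:**
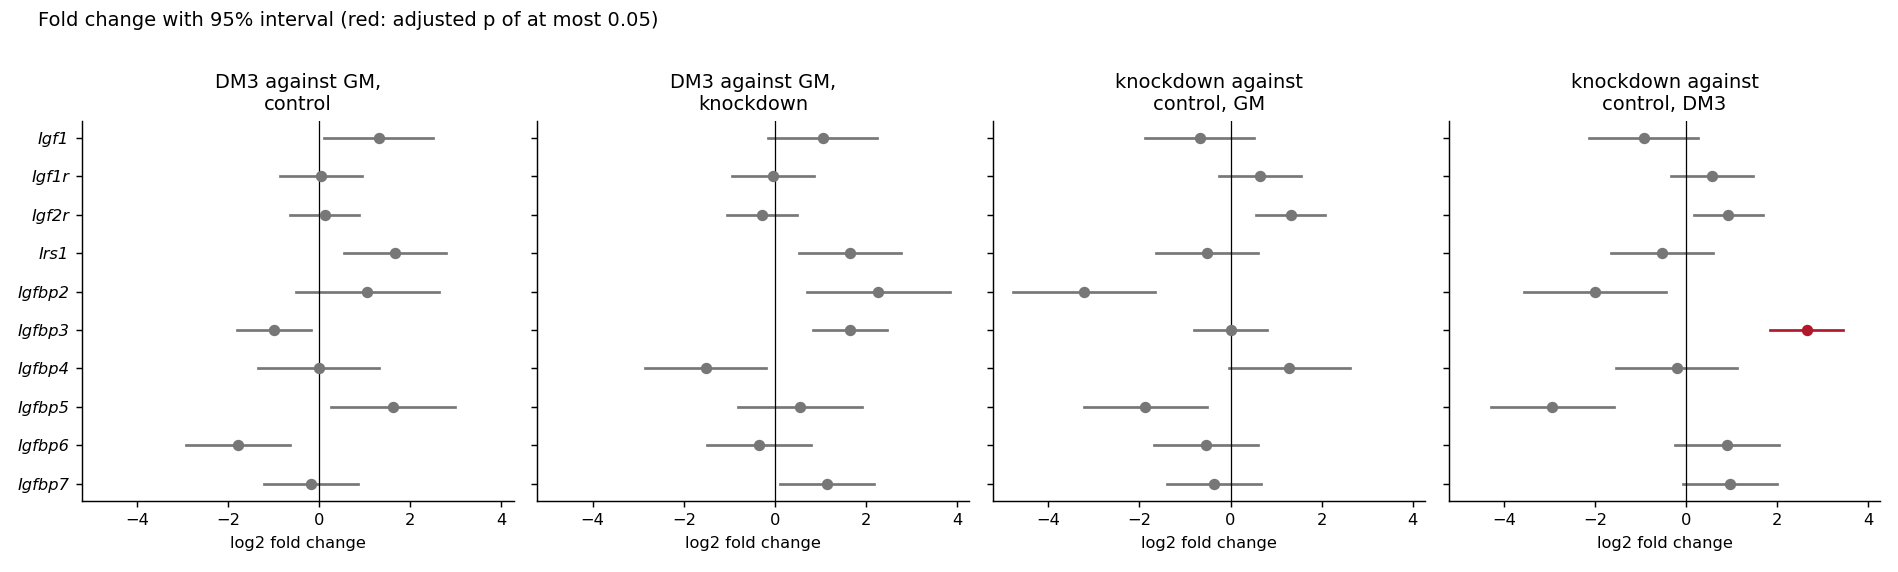
Log2 fold change (x axis) of each of the 10 genes (rows) for DM3 against GM in control and in knockdown cells and for knockdown against control in GM and on DM3, as points with 95% intervals from limma, in red where the adjusted p was at most 0.05. The single red point is Igfbp3 in knockdown against control on DM3, and Igfbp5 and Igfbp2 lie on the other side of 0 there. The fit shown has no replicate block.

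In GM, knockdown against control, 0% of the table was called and 3 of the 10 members had an unadjusted p under 0.05, as did 9% of all genes (1244). Mettl3 itself, with a log2 fold change of -4.10 in that comparison, had a limma adjusted p of 0.188, so a change of that size did not pass there. For Control DM3 against GM 1.14% of all genes were called, and 5 members had an unadjusted p under 0.05, as did 18.2% of all genes. For knockdown DM3 against GM 0.0289% were called, and 5 members had an unadjusted p under 0.05, as did 12.6% of all genes. For the difference between the knockdown effects 0% were called and 1 member, Igfbp3, had an unadjusted p under 0.05 (8.67% of all genes did). Under the replicate block none of these 4 comparisons had a member called other than Igfbp6 in Control DM3 against GM.

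The summed markers of muscle differentiation were lower in the knockdown than in the control on DM3. So were the means of Igfbp5, Igfbp2, Igf1, Irs1 and Igfbp4, while those of Igfbp3, Igfbp6, Igfbp7, Igf1r and Igf2r were higher. The 6 markers of satellite cells and myoblasts summed to 246 and 228 FPKM in Control DM3 and to 36.2 and 35.7 FPKM in knockdown DM3, with 5 of the 6 at or above 0.5 FPKM in each. Myog, the gene of the differentiation factor myogenin, was at 89.1 and 83.3 FPKM in Control DM3 and at 3.50 and 2.28 FPKM in knockdown DM3. In GM, Myog was at 11.1 FPKM in replicate 1 and 2.70 in replicate 2 of the control, and at 12.7 and 0.182 in the knockdown. The 7 myofibre markers summed to 457 and 410 FPKM in Control DM3 and to 12.9 and 9.89 in knockdown DM3. Mymk, a fusion gene, was at 199 and 180 FPKM in Control DM3 and at 4.58 and 3.47 FPKM in knockdown DM3. The study reports the other direction for Mettl3 inhibition, with more myosin heavy chain protein and more fusion. By RT-qPCR it reports higher fusion genes on day 3. Why these libraries differ from that report was not tested. The part of the marker differences in the levels of Igfbp5, Igfbp2, Igf1 and Igfbp3 was not tested. Of the 8 macrophage markers only Cd68 passed 0.5 FPKM, at up to 6.38 FPKM, and Adgre1, C1qa, C1qb and Itgam were at 0 in all 8 libraries, while no marker of endothelium or T cells exceeded 0.0842 FPKM. The fibro-adipogenic list, most of which these cells express, summed to 1025 and 826 FPKM in Control DM3 and to 1355 and 1584 in knockdown DM3.

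Of the 54 other pathway genes 43 could be tested in the cells and none was called in any of the 5 comparisons by limma. At an unadjusted p under 0.05 there were 6 in Control DM3 against GM (14%, against 18.2% of all genes), 3 in knockdown DM3 against GM (6.98% against 12.6%), 3 for the knockdown in GM (6.98% against 9.0%), 7 for the knockdown on DM3 (16.3% against 17.6%) and 1 for the difference between the effects (2.33% against 8.67%).

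The mixture of binding protein transcripts differed between muscle and cells. In muscle, Igfbp5 made up 22.3% to 64.5% of the summed FPKM of the 6 binding proteins and Igfbp7 23.4% to 55.3%. In the cells, Igfbp7 made up 49.3% to 73.8% and Igfbp6 13.8% to 43.1%, and Igfbp5 no more than 16.0%. The share of Igfbp4 in muscle was 11.7% and 12.3% on day 5 and 2.15% and 4.70% on day 0. In Control DM3 cells Igfbp5 and Igfbp2 took 16.0% and 9.86% of the sum in replicate 1 and 9.42% and 10.7% in replicate 2, while in knockdown DM3 they took 1.20% and 1.51% in replicate 1 and 0.809% and 1.67% in replicate 2. The summed FPKM was 185 to 337 in muscle and 408 to 981 in the cells, and since the authors scaled each table separately these sums are given side by side with no test.

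**Figure D5:**
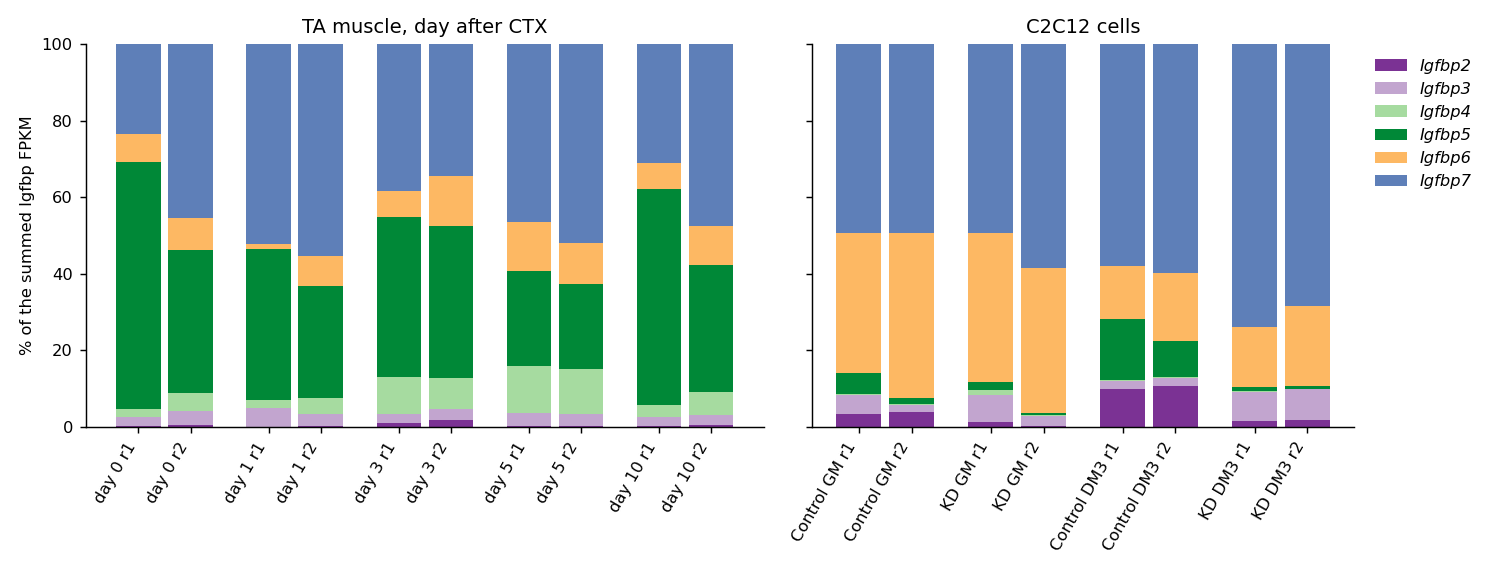
Share (y axis, % of the summed FPKM of Igfbp2 to Igfbp7) of each binding protein transcript in every library, as stacked bars, with muscle by day after CTX on the left and C2C12 cells on the right (KD, Mettl3 knockdown; r1 and r2, replicates). Igfbp5 and Igfbp7 fill most of each muscle bar, and Igfbp7 and Igfbp6 most of each cell bar.

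The genes whose log2 levels followed Igf1 and Igfbp5 most closely were named by Pearson's r over the libraries of a table, among genes whose mean was 1 FPKM or more. In muscle (10 libraries, 12285 genes) they were Nynrin, P3h3 and Adgra2 for Igf1, with r of 0.990, 0.989 and 0.989, and Rab9, Hexim1 and Zfp790 for Igfbp5, with r of 0.923, 0.918 and 0.905. In the cells (8 libraries, 11549 genes) they were Gm12439, Klhl7 and Cyb5r4 for Igf1, with r of 0.976, 0.965 and 0.963, and Enpp2, Spast and 6330403L08Rik for Igfbp5, with r of 0.982, 0.981 and 0.981. The points share libraries, groups and depth, and the top of so many genes is high by selection, so these values are a description.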

How the data were processed

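RNA-seq libraries of TA muscle (10) and C2C12 cells (8) were used. The values are FPKM, which the authors obtained from HISAT2 alignments to GRCm38 and featureCounts totals through the fpkm function of DESeq2. Each table was scaled separately, so groups were compared within a table only. Groups and replicate numbers came from the labels. The Mettl3 and GFP overexpression libraries were not analysed here.

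For genes reaching 0.5 FPKM in 2 or more libraries, limma 3.58.1 (lmFit, eBayes with trend) in R 4.3.3 was fitted to log2(FPKM + 0.1) over every group of a table together, with Benjamini-Hochberg adjustment over all genes tested. The study's own rule, which adds a log2 fold change of at least 2, was an alternative. An exact permutation test of 2 against 2 libraries cannot go below p = 0.333 and was not used. Depth was read from steps between low FPKM values (97.2% to 99.0% whole within 0.05 of a read) with exon lengths of GENCODE M21, and it entered no test. Intervals and SEs come from limma without the replicate block, unless the block is named.

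The members, the pathway list and the marker lists were chosen with earlier results of these data known. Named are all 10 members, of the list up to 4 called genes a comparison with the largest fold change, and the 3 genes nearest to Igf1 and to Igfbp5. Igf2bp2 and Eif4ebp1 are both called genes of day 1. Xist, Myog, C1qa, Cd68 and the other single markers were named after their values were seen.

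On simulated data, 200 genes were changed by known amounts. For day 1 against day 0 (16753 genes) the fit recovered 25, 119 and 170 at log2 sizes of 1, 2 and 4, with 1, 10 and 11 unchanged genes called, and for Control DM3 against GM (13824 genes) 0, 96 and 161, with 0, 5 and 9.

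Same-numbered libraries of the cell table deviated together from their group means (correlations 0.278 to 0.680 for 6 pairs of groups, all above 0.1), so the numbers pair them by this measure, and the labels give no reason. Tried besides were a pseudocount of 1 or 0.01, no filter, a filter at 1 FPKM, quantile normalization, median-ratio scaling, only the groups compared, a replicate block, each library left out and, added after the data were seen, a term for Xist. Python 3.11.15 with pandas 2.3.3 and matplotlib 3.10.9 was used for the rest.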

Additional observations from a re-analysis of the deposited data

Results flagged for a closer look

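Igfbp3 was picked out because its libraries moved in opposite directions on DM3 in the 2 lines: from 23.1 and 17.9 FPKM in GM to 9.85 and 10.4 FPKM in control cells, and from 28.6 and 14.5 to 58.7 and 69.4 FPKM in knockdown cells. The difference between the changes was 2.64 on the log2 scale (SE 0.47), with a limma adjusted p of 0.266 over all genes, so the test of the difference did not pass. Over the alternatives the difference stayed between 2.15 and 3.13, with adjusted p from 0.0917 to 1, and was called in 0 of 16. The rule asked for GM and DM3 libraries that did not overlap in either line and for opposite directions. The other 9 members did not meet it. Of all genes tested, 47.2% did not overlap in control and 48% in knockdown cells. The share of all genes that met the whole rule was not computed. Igfbp3 was selected by this difference, so its size and range are a description.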

How the results depend on the processing

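Of 225 recomputed counts of called members, 172 stayed within 1.5 times the reported count. The reported count was 0 on days 1 and 10 against day 0 and in every cell comparison but the knockdown on DM3. There, staying within that range meant 0 again, also in fits that called few or no genes of the table. The 172 therefore do not measure how steady the other counts were. With only the groups compared, the counts were 3 of 10 on day 3 against day 0, 3 on day 3 against day 1, 3 on day 5 against day 3, 1 on day 10 against day 3 and 4 for the knockdown on DM3. With an added threshold of 2 on the log2 fold change they were 2, 2, 0 and 1 in the first 4 of these and 1 on day 5 against day 0. Without a filter they were 3 on day 3 against day 1 and 0 on day 5 against day 3, with a pseudocount of 1 they were 2 on day 5 against day 3 and 2 for the knockdown on DM3, and with quantile normalization 2 on day 5 against day 3. The term for Xist gave 3 on day 3 against day 0 and 0 on day 5 against day 0, day 3 against day 1 and day 5 against day 3. The replicate block gave 2 on day 5 against day 3, 1 in Control DM3 against GM and 2 for the knockdown on DM3, and in the whole cell table it moved the calls from 158 to 411, from 4 to 9 and from 274 to 505 for Control DM3 against GM, knockdown DM3 against GM and the knockdown on DM3. In muscle the same-numbered libraries did not all deviate together by this measure. The correlation was 0.211 for days 0 and 10 and 0.117 for days 5 and 10, and below 0.1 for the other pairs of days. The numbers were therefore not taken as pairs there, and a pairing of some days is not excluded. The block in muscle called Igfbp7 on day 5 against day 0, Igfbp6 on day 3 against day 1, Igfbp2 on day 5 against day 3 and Igf1 on day 10 against day 3 in addition. Leaving out 1 library at a time, the counts ranged from 0 to 1 on day 1, 2 to 6 on day 3 and 0 to 5 on day 5 against day 0, from 0 to 6 on day 3 against day 1, 0 to 1 on day 5 against day 3, 0 to 4 on day 10 against day 3, 0 to 1 in Control DM3 against GM and 0 to 2 for the knockdown on DM3. Over the whole table the number of genes called also differed between settings, so a changed member count is not particular to the members. The cause of the changes in the member counts was not tested. Of 996 recomputed fold changes of 57 reported ones, 1 changed sign: Igf1 in knockdown against control in GM, -0.68 with all libraries, ranged from -1.45 without Control GM replicate 1 to 0.093 without Control GM replicate 2. Median-ratio scaling changed no member's call, since its factors were the same for all libraries of a table, 1.008 in muscle and 1.002 in cells. Depth limits Igfbp2 most, with 4 reads in its lowest muscle library.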

Other observations

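Igf2 and Grb10, which both rose in regenerating muscle, were close to absent from the C2C12 cells. Igf2 was at 0 to 0.0385 FPKM and Grb10 at 0 to 0.0330 FPKM in the 8 cell libraries, in GM and on DM3, where Igf1 was at 1.47 to 7.67 FPKM. The related adaptor Grb14 was at 0.284 to 1.25 FPKM and Irs2 at 1.69 to 13.7 FPKM in the same libraries. Igfbp1, the binding protein best known from liver, had no fragment in any of the 18 libraries, and Igfbpl1 did not exceed 0.0215 FPKM.

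In GM, Adam12, Stc1 and Pappa2 differed widely between the replicates of at least 1 group. Adam12 was at 21.7 and 2.05 FPKM in Control GM and at 21.5 and 3.82 FPKM in knockdown GM. Stc1, which encodes stanniocalcin 1, an inhibitor of the binding protein protease PAPP-A, was at 12.2 and 2.27 FPKM in Control GM and at 3.90 and 4.89 FPKM in knockdown GM. Pappa2, a protease of IGFBP3 and IGFBP5, was at 0.712 and 0.0201 FPKM in Control GM and at 2.69 and 0.397 FPKM in knockdown GM. On DM3 the replicates lay closer together: Stc1 was at 14.3 and 11.1 FPKM in the control and at 3.23 and 3.34 FPKM in the knockdown, and Pappa2 at 0.652 and 0.514 FPKM in the control and at 2.66 and 1.71 FPKM in the knockdown. These genes were chosen after their values were seen, and none passed the test in the cells.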
